A study of Homo sapiens with 12 samples.

Results

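The genes described here are 10 members of the calcineurin pathway and of the transcription factor families that it controls. They are PPP3CA, a catalytic subunit of the phosphatase calcineurin; RCAN1, RCAN2 and RCAN3, the regulators of calcineurin; NFATC1, NFATC2 and NFATC3 of the NFAT family; and MEF2A, MEF2C and MEF2D of the MEF2 family. They were chosen by name, with earlier results of these data known. Each is annotated alone on at least 1 probe set, and they are 10 of the 18239 genes measured. Further relatives are described with the pathway lists. On the arrays, 41 probe sets carried 1 of these symbols and no other. The level of each gene was read from its brightest probe set, by the mean of all 12 arrays, and the others served as a check.

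Calcineurin is activated by calmodulin when calcium rises in a cell, as it does after the B cell receptor is engaged. The active phosphatase strips phosphate from NFAT proteins, which then enter the nucleus, and it also acts on MEF2 proteins, which regulate genes of B cell growth and survival and, in muscle, of differentiation. RCAN proteins bind calcineurin and restrain it, and RCAN1 has an internal promoter that NFAT drives, so that its short transcript is widely read as a feedback target of the pathway. In B cells MEF2C works downstream of the antigen receptor, and NFATC1 and NFATC2 are the main NFAT proteins of lymphocytes.

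RNA came from JEKO-1 tumors, a human line of mantle cell lymphoma (MCL), grown under the skin of female CB17-SCID mice, which lack functional T and B cells of their own. The 4 groups held 3 tumors each. The control group received vehicle, the acadesine group 400 mg/kg of acadesine (AICAR, a nucleoside that activates the energy sensor AMPK after phosphorylation), the rituximab group 10 mg/kg of the anti-CD20 antibody rituximab each week, and the combination group both drugs, for 18 days. Acadesine was given daily by the sample labels and on 5 days of the week by the study's methods. All tumors derive from 1 cell line, and the tumors profiled were picked by the study as representative of larger groups of mice. Each tumor was read on an Affymetrix HT HG-U219 array, and all levels below are RMA values on the log2 scale, where 1 unit is a doubling.

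The 12 arrays were close to each other, with array medians of 4.59 to 4.66 and correlations over genes of 0.989 to 0.996. The B cell list was high in every tumor, at a mean of 9.43 to 9.77 over 6 of its 7 genes, with MS4A1, the gene of CD20, between 11.86 and 12.59. CCND1, the cyclin that defines MCL, lay between 11.98 and 12.39. SOX11, the other MCL marker, read higher in the 3 combination tumors than in the other 9, at 9.92, 9.89 and 9.51 against 8.46, 9.44 and 8.56 in control, and its part in the results below was not tested. Skeletal muscle transcripts differed between tumors. The mean of 15 of 15 muscle genes was 4.75 to 4.80 in the control tumors, 4.82 to 5.25 with acadesine and 4.57 to 5.25 with rituximab, and in the combination group it was 4.61 in tumor 1, 6.71 in tumor 2 and 5.70 in tumor 3. In combination tumor 2, 13 of the 15 muscle genes lay above all controls. The means of the endothelial, macrophage, T and NK cell, fibroblast and neuronal lists stayed between 3.90 and 5.16 in all tumors. Single genes lay higher, such as PECAM1 (endothelial list, 9.35 to 10.09) and CD247 (T and NK cell list, 8.26 to 8.68). The arrays carry human probe sets and the hosts were mice, so low values do not show that host cells were few. The species of the muscle transcripts was not tested. As all these levels are RNA values of whole tumors, fewer cells of a type and less RNA per cell cannot be told apart.

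Of the 10 genes, 3 fell in tumors treated with both drugs and 0 rose (limma over all 12 arrays, Benjamini-Hochberg adjusted over 18239 genes, threshold 0.05). RCAN2 fell by 1.4, MEF2C fell by 0.94 and RCAN3 fell by 0.71 on the log2 scale. In this comparison 2.47% of all genes were called, 1.33% as lower and 1.14% as higher. The 10 genes were chosen with earlier results of these data known, so setting them beside all genes is a description and not a test. NFATC1 and MEF2D lay above all controls in the combination tumors without passing the test, and PPP3CA, RCAN1, NFATC2, NFATC3 and MEF2A overlapped with control. The groups did not overlap for 5 of the 10 genes, against 18.5% of all genes. The median difference of the 10 genes was -0.0048, against 0.0018 for all genes, while the median size of the difference, without its sign, was 0.234 against 0.114. Rank Products, read on the brightest probe set of each gene, called 4 of the 10 genes for the combination, NFATC1 as higher beside the same 3 as lower. It called 2.77% of all 49293 probe sets, dim ones included, so the 2 shares are not on like sets. With 3 tumors against 3, an exact permutation test of a single gene cannot go below p = 0.1.

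**Figure D1:**
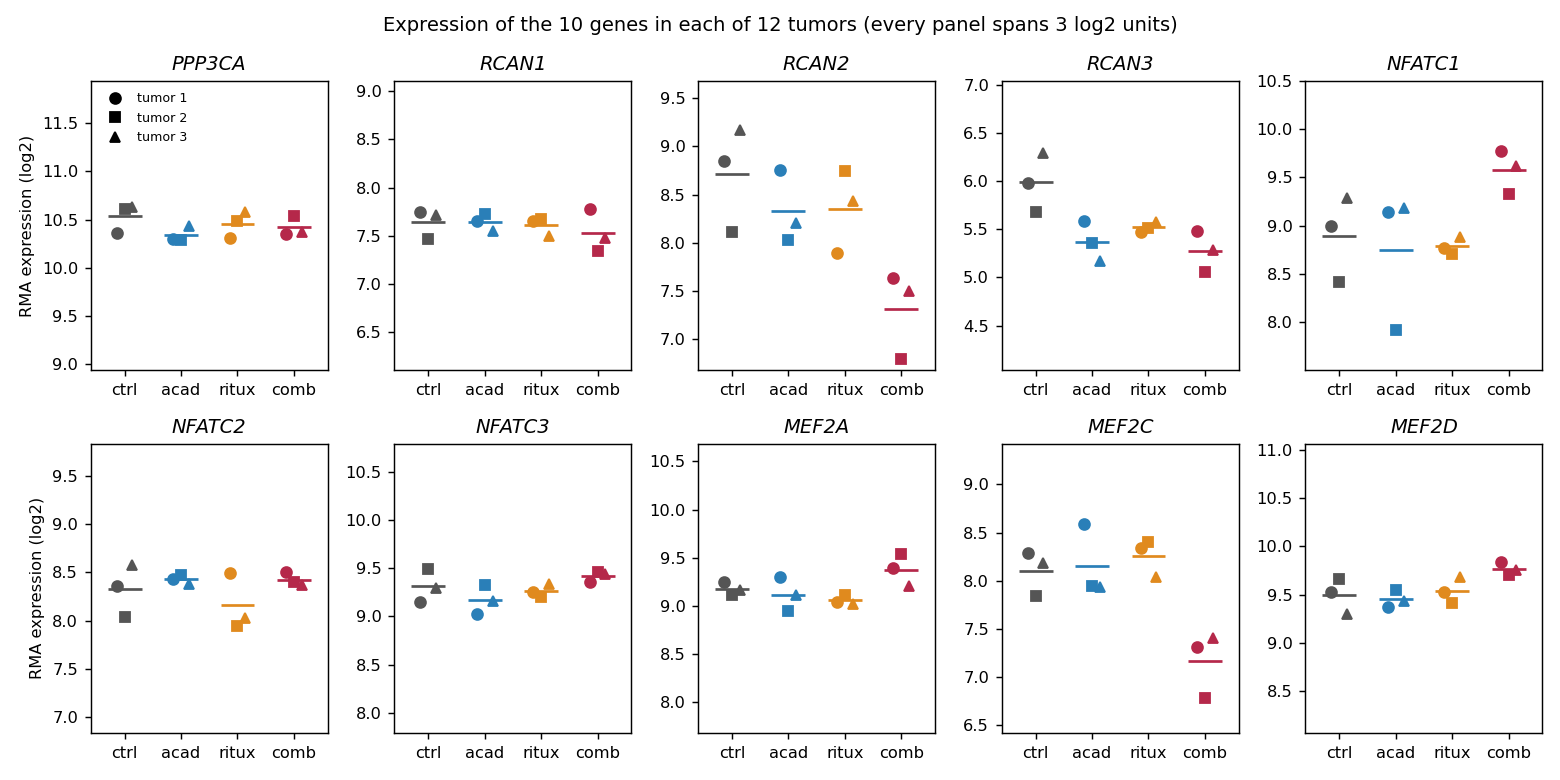
RMA expression (log2) of the 10 genes in each of the 12 tumors, by group (ctrl, control; acad, acadesine; ritux, rituximab; comb, combination); points are tumors, horizontal lines are group means, and every panel spans the same number of log2 units. The 3 combination tumors sit below all controls for RCAN2, RCAN3 and MEF2C and above all controls for NFATC1 and MEF2D.

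PPP3CA, the alpha catalytic subunit of calcineurin, lies on chromosome 4 (GRCh38.p14, chr4:101023418-101347526). It read 10.37, 10.61 and 10.63 in the control tumors, 10.30, 10.28 and 10.43 with acadesine, 10.31, 10.48 and 10.58 with rituximab, and 10.35, 10.54 and 10.37 with both. The 12 values spanned 0.34 log2 units, the smallest range among the 10 genes, and every treated group overlapped with control. The combination differed from control by -0.12 ± 0.094 (SE, n = 3 per group; 95% interval -0.31 to 0.08; adjusted p = 0.670 from limma). With acadesine alone the difference was -0.20, with an unadjusted p of 0.0464 and an adjusted p of 0.632 from limma. With acadesine 2 of its other 3 probe sets differed from control by -0.30 and -0.31, all 3 acadesine tumors lying below all controls (adjusted p = 0.579 and 0.576 over all probe sets, from limma), and the last by -0.0094. Between combination and control these 3 differed by 0.02, -0.17 and -0.011.

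RCAN2, a calcineurin inhibitor known best from brain, heart and muscle, lies on chromosome 6 (chr6:46220736-46491970). It read 8.85, 8.12 and 9.18 in the control tumors, 8.76, 8.03 and 8.20 with acadesine, 7.90, 8.74 and 8.43 with rituximab, and 7.63, 6.80 and 7.51 with both drugs. All 3 combination tumors lay below the lowest tumor of every other group, while both single-agent groups overlapped with control. The mean was 8.71 ± 0.54 (SD, n = 3) in control and 7.31 ± 0.45 in the combination, 2.64-fold lower (-1.4 ± 0.254 SE, 95% interval -1.93 to -0.87, adjusted p = 0.00433 from limma).

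The fall of RCAN2 was also called against each single agent. The combination lay 1.02 below acadesine (-1.02, adjusted p = 0.0358 from limma), where 2.45% of all genes were called and 1.13% as lower, and 1.04 below rituximab (-1.04, adjusted p = 0.0293 from limma), where 2.82% were and 1.31% as lower. These contrasts share the combination tumors with each other and with the comparison against control. Acadesine alone differed from control by -0.38 (95% interval -0.91 to 0.14) and rituximab alone by -0.36 (-0.89 to 0.17), and neither passed the test. All 3 RCAN2 probe sets were lower in the combination, by -1.4, -1.78 and -0.64. On the probe set with a difference of -1.78 the controls read 7.22, 6.43 and 7.31 and the combination tumors 5.70, 4.93 and 5.01, so that the groups were again apart. RCAN2 was called against control whichever tumor was left out, with adjusted p values of 0.000539 to 0.0457 from limma. The calls against the single agents were less stable: against acadesine RCAN2 no longer passed without acadesine tumor 1 (adjusted p = 0.198), combination tumor 2 (0.223) or combination tumor 3 (0.0509), and against rituximab without rituximab tumor 2 (0.205), rituximab tumor 3 (0.0944) or combination tumor 2 (0.198), all from limma.

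RCAN3, a calcineurin regulator that is expressed in lymphocytes, lies on chromosome 1 (chr1:24502344-24541040). It read 5.98, 5.68 and 6.29 in the control tumors, 5.59, 5.35 and 5.17 with acadesine, 5.47, 5.51 and 5.57 with rituximab, and 5.48, 5.05 and 5.28 with both. All 9 treated tumors, from 5.05 to 5.59, lay below all 3 controls, a pattern that 0.488% of all genes showed in this direction. RCAN3 was the only 1 of the 10 genes with this pattern in any direction.

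Measured against control, RCAN3 fell by 0.71 with both drugs (1.64-fold lower; -0.71 ± 0.184 SE, 95% interval -1.10 to -0.33, adjusted p = 0.0408 from limma). The single agents gave -0.62 (acadesine, unadjusted p = 0.00305) and -0.47 (rituximab, unadjusted p = 0.0191), with adjusted p values of 0.564 and 1.00 from limma. At the same threshold 0 of all 18239 genes, or 0.0%, were called for either single agent. An unadjusted p under 0.05 from limma was found for 1423 genes with acadesine and 768 with rituximab. Rank Products, rewritten here after the study's methods, called 52 (0.105%) and 83 (0.168%) of all probe sets, with 0 of the 10 brightest probe sets used here among them. These are not the counts that the study reported from its own run. The combination differed from acadesine by only -0.10 (-0.48 to 0.29) and from rituximab by -0.25 (-0.63 to 0.14), and these contrasts share their tumors with the 3 comparisons against control. RCAN3 therefore sat at 5.37 ± 0.21 (SD, n = 3) with acadesine, 5.52 ± 0.05 with rituximab and 5.27 ± 0.22 with both, against 5.99 ± 0.31 in control. Neither contrast of the combination with a single agent passed the test, and acadesine was not tested against rituximab.

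The RCAN3 call was the weakest of the 3. It was lost without control tumor 1 (adjusted p = 0.115), control tumor 3 (0.223), rituximab tumor 3 (0.0538), or any one of combination tumors 1 (0.0533), 2 (0.229) and 3 (0.0933), all from limma, although the difference stayed between -0.87 and -0.56. Its other 2 probe sets averaged 3.94 and 3.92, near the floor of the arrays. One of them differed by 0.01 between combination and control. The other differed by -0.22, with controls between 4.13 and 4.25 and every treated tumor below them.

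RCAN1, the regulator encoded on chromosome 21 (chr21:34516442-34615113) and the usual transcriptional readout of calcineurin activity, was not called in any comparison. It read 7.74, 7.47 and 7.71 in the control tumors, 7.65, 7.73 and 7.55 with acadesine, 7.65, 7.67 and 7.50 with rituximab, and 7.78, 7.34 and 7.48 with both. All groups overlapped. The combination differed from control by -0.11 ± 0.140 (SE; 95% interval -0.40 to 0.18; adjusted p = 0.824 from limma), an interval that leaves room for a modest change in either direction. Across its 6 probe sets the differences ran from -0.28 to 0.09, with 5 of them below 0. On the probe set at -0.28 the controls read 7.03, 7.05 and 7.39 and the combination tumors 6.92, 6.93 and 6.77, all below them (adjusted p = 0.471 over all probe sets, from limma). The annotation names the gene and not the transcript, so the long and short forms of RCAN1 were not told apart.

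The sequences before the RCAN start sites are shown because NFAT drives 1 of these promoters and because RCAN2 and RCAN3 were called and RCAN1 was not; whether the 3 genes differed from each other in response was not tested. RefSeq (GRCh38.p14) gave 28 windows of 250 bases before a start for 9 of the 10 genes, PPP3CA being the other, and each was searched on both strands for the NFAT core GGAAA, which reads TTTCC on the other strand, and for the MEF2 consensus. A core is short, and 55.6% of all 35116 such windows hold at least 1, as do 14 of the 28. The 4 cores of the internal RCAN1 start, the most in any of the 28 windows, are a number that 1.87% of all windows reach. Below, 5′ to 3′ on the strand of the gene, capitals mark the cores: RCAN1 at chr21:34526823-34527072 (minus strand), RCAN2 at chr6:46491450-46491699 (minus strand) and RCAN3 at chr1:24502586-24502835 (plus strand).
RCAN1: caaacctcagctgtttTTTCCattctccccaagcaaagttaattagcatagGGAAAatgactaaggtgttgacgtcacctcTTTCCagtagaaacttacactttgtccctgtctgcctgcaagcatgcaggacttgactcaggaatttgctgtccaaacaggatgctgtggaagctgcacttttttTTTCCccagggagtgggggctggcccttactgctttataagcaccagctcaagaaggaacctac
RCAN2: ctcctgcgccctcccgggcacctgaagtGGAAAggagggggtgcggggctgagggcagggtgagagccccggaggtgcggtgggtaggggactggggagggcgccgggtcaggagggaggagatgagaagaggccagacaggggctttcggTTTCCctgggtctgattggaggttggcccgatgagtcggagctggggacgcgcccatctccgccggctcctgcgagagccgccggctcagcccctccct
RCAN3: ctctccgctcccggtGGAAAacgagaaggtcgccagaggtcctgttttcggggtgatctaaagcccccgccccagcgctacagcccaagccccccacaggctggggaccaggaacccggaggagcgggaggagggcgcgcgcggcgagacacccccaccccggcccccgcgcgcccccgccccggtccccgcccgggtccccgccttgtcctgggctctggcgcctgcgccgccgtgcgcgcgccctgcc
In the windows shown, the RCAN1 cores begin 234, 199, 169 and 64 bases before the start, those of RCAN2 222 and 99 bases before it, and that of RCAN3 235 bases before it. Another RCAN3 window, not shown, holds 1 core that begins 110 bases before its start. The window with most cores was that of RCAN1, the RCAN gene with the difference nearest to 0, and no other RCAN1 window held a core. A match of letters is a description of the window and does not show that a factor binds there.

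**Figure D2:**
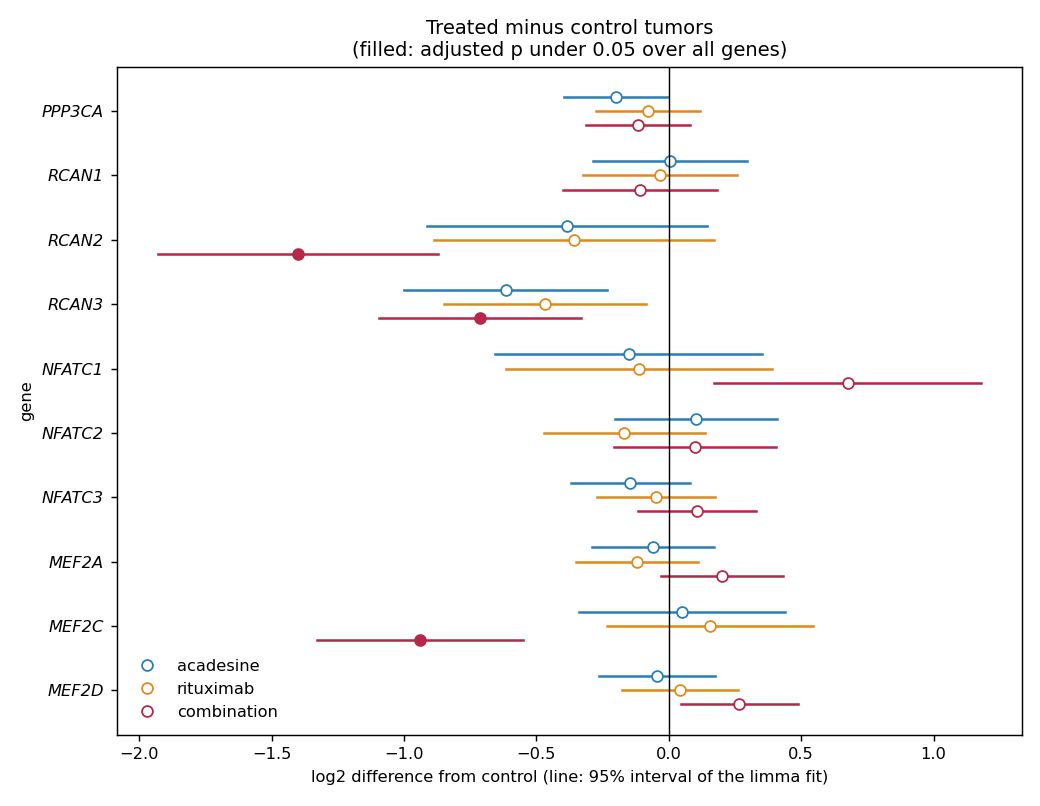
Log2 difference of each treated group from control for the 10 genes; points are limma estimates, lines their 95% intervals, and filled points passed an adjusted p of 0.05 over all genes. Only RCAN2, RCAN3 and MEF2C with the combination are filled, and RCAN3 lies left of 0 for all 3 treatments.

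NFATC1 (chr18:79395930-79529323), which lymphocytes induce after activation, had the largest positive difference of the 10 genes, and its call depended on the fit. It read 8.99, 8.41 and 9.29 in the control tumors, 9.14, 7.91 and 9.18 with acadesine, 8.77, 8.70 and 8.88 with rituximab, and 9.78, 9.33 and 9.61 with both. The lowest combination tumor lay above the highest tumor of each other group, and acadesine tumor 2 stood apart as the lowest of the 12. The combination differed from control by 0.68 ± 0.242 (SE; 95% interval 0.17 to 1.18; 1.6-fold) with an adjusted p of 0.174 from limma, and from acadesine and rituximab by 0.83 (adjusted p = 0.0750) and 0.79 (adjusted p = 0.0884).

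Acadesine tumor 2 enters the estimate of spread that all comparisons share. Without it the difference from control was still 0.68, since that tumor is in neither group, and the adjusted p was 0.0234 from limma. Fitting only the control and combination tumors gave 0.0430. The same tumor was lowest on 2 further NFATC1 probe sets, at 5.50 and 4.14. On these probe sets the combination lay 0.90 (adjusted p = 0.0808 over all probe sets) and 0.47 above control. The first of them passed over all probe sets against acadesine (1.20, adjusted p = 0.0175) and rituximab (1.34, adjusted p = 0.00693), both from limma. The remaining 2 dim probe sets with means of 3.78 and 3.68 differed by 0.24 and -0.12.

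NFATC2 and NFATC3, the NFAT proteins that resting lymphocytes already hold, showed small differences. NFATC2 (chr20:51386963-51562839) read 8.36, 8.04 and 8.58 in the control tumors, 8.43, 8.48 and 8.38 with acadesine, 8.50, 7.95 and 8.03 with rituximab, and 8.51, 8.40 and 8.37 with both, and the groups overlapped throughout. NFATC3 (chr16:68085370-68229259) read 9.15, 9.50 and 9.29, then 9.02, 9.33 and 9.16, then 9.26, 9.21 and 9.33, and 9.36, 9.46 and 9.44 in the same order. Its combination tumors lay within the range of the controls and above all tumors of both single agents. The differences between combination and control were 0.10 (95% interval -0.21 to 0.40) for NFATC2 and 0.11 (-0.12 to 0.33) for NFATC3, with adjusted p values of 0.855 and 0.755 from limma.

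MEF2C (chr5:88717117-88904105), the MEF2 gene most tied to B cells, was called as lower with both drugs against control and against each single agent. It read 8.29, 7.84 and 8.19 in the control tumors, 8.59, 7.94 and 7.93 with acadesine, 8.34, 8.40 and 8.04 with rituximab, and 7.31, 6.78 and 7.41 with both. The highest combination tumor, at 7.41, lay below the lowest of the other 9 tumors, at 7.84. The mean fell from 8.11 ± 0.23 (SD, n = 3) in control to 7.17 ± 0.34, 1.92-fold lower (-0.94 ± 0.187 SE, 95% interval -1.33 to -0.55, adjusted p = 0.00825 from limma).

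MEF2C was lower by 0.99 than with acadesine alone (-0.99, adjusted p = 0.00679) and by 1.10 than with rituximab alone (-1.10, adjusted p = 0.00226), both from limma. With a single agent its differences from control were above 0, at 0.05 for acadesine (95% interval -0.34 to 0.44) and 0.16 for rituximab (-0.23 to 0.54). The call against control was lost without control tumor 1 (adjusted p = 0.0574), control tumor 3 (0.0558) or combination tumor 2 (0.0703), and that against acadesine without acadesine tumor 1 (0.0557) or combination tumor 2 (0.0606), all from limma; the call against rituximab held without any one tumor.

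The MEF2C probe sets did not all move together. A further 2 differed by -0.68 (adjusted p = 0.0516 over all probe sets) and -0.58. The fourth and dimmest differed by 0.47, and on it combination tumor 2 read 6.15 beside 4.67 and 5.08 in the other combination tumors and 4.61 to 4.99 in the controls. That tumor is also the one with the highest muscle level, 6.71, and MEF2C is expressed in muscle; the part of muscle RNA in this probe set was not tested. The mean over all 4 probe sets differed by -0.43 with an adjusted p of 0.235 from limma.

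**Figure D3:**
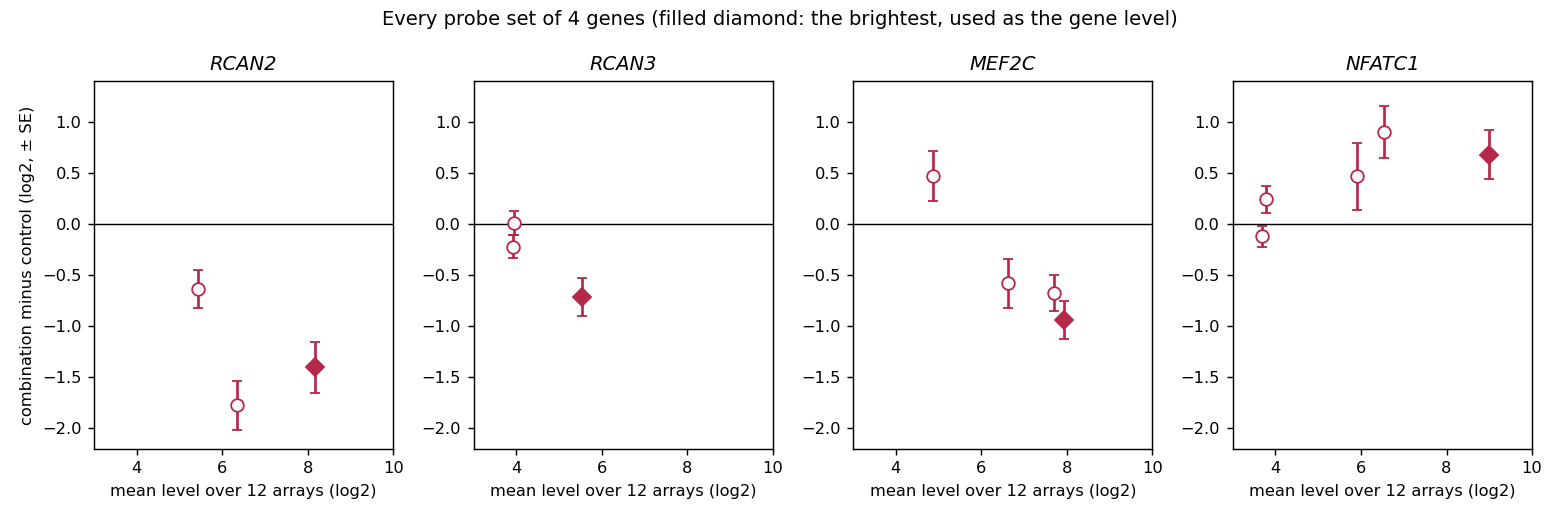
Difference between combination and control (log2, ± SE) for every probe set of RCAN2, RCAN3, MEF2C and NFATC1, plotted against the mean level of the probe set over the 12 arrays; the filled diamond is the brightest probe set, which gave the gene level. All 3 RCAN2 probe sets lie below 0, and the dimmest MEF2C probe set, at 0.47, lies on the other side of 0 from the other 3.

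MEF2A (chr15:99565417-99716488) and MEF2D (chr1:156463727-156500775), which are expressed in most tissues, were not called in any comparison. MEF2D read 9.53, 9.67 and 9.30 in the control tumors, 9.38, 9.55 and 9.44 with acadesine, 9.53, 9.41 and 9.69 with rituximab, and 9.84, 9.70 and 9.76 with both, so that the 3 combination tumors were the highest of the 12. The difference from control was 0.27 ± 0.106 (SE; 95% interval 0.05 to 0.49) with an adjusted p of 0.231 from limma, and all 6 MEF2D probe sets differed in this direction, by 0.13 to 0.28.

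MEF2A read 9.25, 9.12 and 9.17 in the control tumors, 9.30, 8.95 and 9.11 with acadesine, 9.04, 9.12 and 9.02 with rituximab, and 9.39, 9.54 and 9.20 with both. Its combination tumors overlapped with control and acadesine and lay above all rituximab tumors. The difference from control was 0.20 (-0.03 to 0.43) and that from rituximab 0.32 (0.09 to 0.55), with adjusted p values of 0.448 and 0.140 from limma. MEF2C thus fell while the other MEF2 genes measured lay at or above their control levels, and whether the MEF2 genes differed from each other in response was not tested.

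The MEF2 windows are shown because MEF2 genes can carry sites for MEF2 proteins. The consensus is rare, with 2.80% of all windows holding it, and it was found in 2 of the 28 windows, 1 of MEF2C and 1 of MEF2A. These are the windows at chr5:88824345-88824594 (MEF2C, minus strand) and chr15:99565734-99565983 (MEF2A, plus strand), where capitals mark the consensus, 10 letters long, and the NFAT core.
MEF2C: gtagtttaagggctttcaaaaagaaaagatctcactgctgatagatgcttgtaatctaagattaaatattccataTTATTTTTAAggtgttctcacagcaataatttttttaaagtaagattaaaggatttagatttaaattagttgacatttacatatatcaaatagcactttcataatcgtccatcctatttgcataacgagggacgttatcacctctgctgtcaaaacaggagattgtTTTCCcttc
MEF2A: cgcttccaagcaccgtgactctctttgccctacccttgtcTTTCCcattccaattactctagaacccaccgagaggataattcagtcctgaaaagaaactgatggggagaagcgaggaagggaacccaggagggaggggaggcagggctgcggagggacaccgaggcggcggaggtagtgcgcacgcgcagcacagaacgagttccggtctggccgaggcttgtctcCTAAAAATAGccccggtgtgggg
The consensus begins 175 bases before the start in MEF2C and 23 bases before it in MEF2A, and each window also holds 1 NFAT core. MEF2C has 7 windows, and the other 6 hold no consensus. MEF2C, which fell, and MEF2A, which did not pass the test, both carried it.

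The effect of both drugs was set against the sum of the single-agent effects by the interaction, the combination's difference minus that of each single agent. MEF2C was furthest below its sum, which was 0.21, against the -0.94 measured (interaction -1.15 ± 0.264 SE, 95% interval -1.69 to -0.60, adjusted p = 0.0684 from limma). NFATC1 was furthest above it, with a sum of -0.26 against 0.68 (interaction 0.94 ± 0.342, 0.23 to 1.65, adjusted p = 0.292). For RCAN2 the sum was -0.74 against -1.4 (interaction -0.66, -1.41 to 0.09), and for RCAN3 it was -1.08 against -0.71 (interaction 0.37, -0.17 to 0.91). None of the 10 genes was called, against 0.28% of all genes. An unadjusted p under 0.05 from limma was found for 3 of them, and for 1973 of all 18239 genes. MEF2A was among the 3, with an interaction of 0.38. The MEF2C interaction did pass without acadesine tumor 3 (-1.26, adjusted p = 0.0313 from limma). Over all fits that left out 1 tumor, its adjusted p from limma ran from 0.0313 to 0.208. The value of -1.15 is that of the brightest MEF2C probe set. Its other probe sets, from brighter to dimmer, gave interactions of -0.59, -0.15 and 0.83. The SE of the interaction was 0.359 for RCAN2 and 0.260 for RCAN3, where the median over all genes was 0.191, and both intervals include 0.

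**Figure D4:**
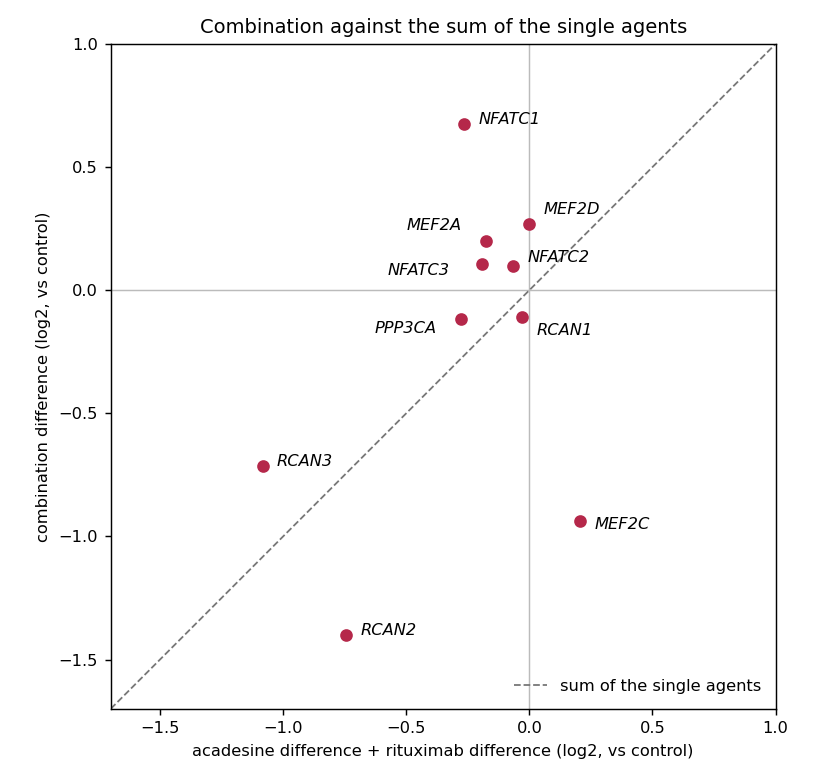
Difference of the combination from control against the sum of the acadesine and rituximab differences from control (all log2) for the 10 genes; the dashed line is where the combination equals the sum. MEF2C, at a sum of 0.21 and a combination difference of -0.94, lies farthest below the line, and NFATC1, at -0.26 and 0.68, farthest above it.

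The levels of the fallen genes are given here beside the muscle level, and the part of muscle RNA in their differences was not tested. Combination tumor 2, with the highest muscle level (6.71), had the lowest value of the 12 tumors for RCAN2 (6.80), MEF2C (6.78) and RCAN3 (5.05). Combination tumor 1, whose muscle level of 4.61 was below all controls, lay under all controls for the same genes, at 7.63, 7.31 and 5.48. Combination tumor 3, at a muscle level of 5.70, read 7.51, 7.41 and 5.28. With a muscle level of 5.25, acadesine tumor 2 read 8.03, 7.94 and 5.35. At the same muscle level, rituximab tumor 2 read 8.74, 8.40 and 5.51. With the mean muscle level added to the fit, the differences from control were -1.13 for RCAN2 (adjusted p = 0.0800), -0.73 for MEF2C (0.145) and -0.54 for RCAN3 (0.354), all from limma. Without the 4 tumors that an earlier analysis of these data found raised in muscle transcripts they were -1.08, -0.79 and -0.50, and none passed (adjusted p = 0.209, 0.246 and 0.697 from limma); that fit leaves 1 combination tumor, which is assumed to vary like the other groups.

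**Figure D5:**
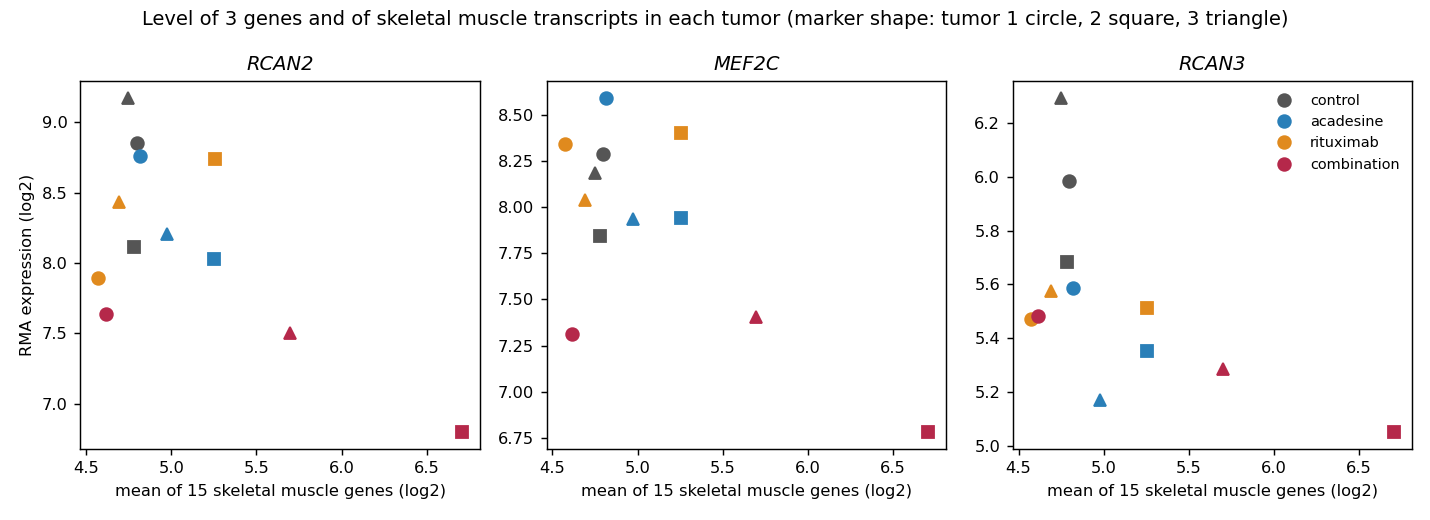
RMA expression (log2) of RCAN2, MEF2C and RCAN3 in each tumor against the mean of 15 skeletal muscle genes (log2); colour gives the group and marker shape the tumor number. Combination tumor 1, at a muscle level of 4.61, lies below all controls in each panel, and combination tumor 2, at 6.71, is lowest in each.

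Of 87 measured genes in 7 lists of the calcium, calcineurin, NFAT and MEF2 pathways, 6 were called between combination and control, 2 higher and 4 lower, against 2.47% of all genes. The lists were chosen with earlier results of these data known, so these counts describe the lists and do not test them against all genes. The median of the 87 differences was -0.02. Against acadesine 8 were called, 4 in each direction, where 2.45% of all genes were called, 1.31% as higher and 1.13% as lower. Against rituximab 5 were called, 2 higher and 3 lower, where 2.82% of all genes were called, 1.51% as higher and 1.31% as lower. The 6 calls against control lay in the lists of downstream genes and of MEF2 co-repressors and kinases. With the muscle level in the fit, 1 of the 87 was called, RAG1, and the share of all genes called in that fit is not given here.

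In the 4 lists of family relatives, of calcium entry, of anchors and inhibitors and of NFAT kinases, no gene was called against control. In the family relatives, 0 of 6 passed; PPP3CC, the gamma catalytic subunit of calcineurin, gave -0.54 (adjusted p = 0.0545), and NFATC4 0.47 (adjusted p = 0.414). Of 14 genes of calcium entry and calmodulin signaling, 0 passed, with ORAI3, a calcium channel subunit, at -0.55 (adjusted p = 0.103) and ATP2B4, a calcium pump, at -0.40. Against acadesine alone, however, ORAI3 was lower (-0.74, adjusted p = 0.0254) and PLCG1, a phospholipase of receptor signaling, higher (0.59, adjusted p = 0.0193), as was NFATC4 (0.96, adjusted p = 0.0405), all from limma. Neither the 9 anchors, inhibitors and immunophilins (BCL2 -0.31; MYOZ1, a muscle protein that binds calcineurin, 1.17 with an adjusted p of 0.158) nor the 11 kinases and export factors of NFAT (CSNK1E 0.43, LRRK2 -0.37) held a call. Of 17 co-repressors and kinases of MEF2, 1 fell, SIK1, a kinase that phosphorylates class IIa histone deacetylases (-0.69, adjusted p = 0.0419 from limma).

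Among 16 genes reported as NFAT targets, 3 were called, and they went in both directions. BCL2A1, a survival gene of the BCL2 family, read 6.79, 5.92 and 6.94 in control and 4.92, 4.36 and 5.12 with both drugs, and fell by 1.75. CD5, a surface protein of MCL that dampens the antigen receptor, read 7.02, 6.82 and 7.23 against 6.04, 5.21 and 5.96, and fell by 1.29. For both genes the groups were far apart. IRF4, a transcription factor of activated B cells, rose by 0.38 (adjusted p = 0.0352 from limma), from 9.88, 10.18 and 9.97 to 10.31, 10.53 and 10.33. Among 16 genes reported as MEF2 targets, RAG1, a recombinase gene of early B cells, read 5.26, 4.93 and 4.74 in control and 8.02, 7.57 and 6.87 with both drugs, and rose by 2.51. IRF8, a B cell and myeloid factor, fell by 0.51, from 11.79, 12.07 and 12.01 to 11.48, 11.25 and 11.60. The direct control of any of these genes by NFAT or MEF2 was not measured.

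Over the 12 tumors the genes most like RCAN2 in pattern were BCL2A1 (Pearson r = 0.971), FBXO6 (0.966) and TRIM22 (0.966). Those most like MEF2C were PSMB8 (0.970), COQ10B (0.969) and ISG20 (0.968), and those most like RCAN3 were ZNF804A (0.939), PTGER4 (0.907) and HDHD2 (0.901). BCL2A1 is itself on the list of NFAT targets above, while FBXO6, TRIM22, PSMB8, COQ10B, ISG20, ZNF804A, PTGER4 and HDHD2 are on none of the pathway lists. Among the 10 genes, RCAN2 was most like MEF2C (r = 0.865) and then RCAN3 (0.790). These values describe 12 arrays that share the same 4 groups, and the difference of the combination group from the rest enters every r.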

How the data were processed

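Total RNA of 12 JEKO-1 tumors was hybridized to 12 arrays, 1 tumor on each, and the authors normalized the scans with the RMA algorithm of the BioConductor affy package, which corrects the background, equalizes the arrays by quantiles and gives 1 log2 value per probe set. These deposited log2 values ranged from 3.09 to 14.3. Of 49293 probe sets, 93 Affymetrix controls not counted, 45253 named 1 gene, 1327 several and 2713 none. The number of tumors limits the precision, and the limma p values set each difference between groups against the spread between tumors.

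A linear model of the 4 groups was fitted on 18239 genes in limma 3.58.1 (R 4.3.3; variance prior following intensity), with Benjamini-Hochberg adjustment over all genes. The study's Rank Products method (FDR under 0.2, fold above 1.4, 100 permutations, rewritten in Python 3.11.15 with numpy 2.4.6) was an alternative, as were other probe set rules, variance models and normalizations, a filter on dim genes, array weights, only the groups compared, the tumor number as a block, the muscle level, and leaving out tumors. The script was tested on simulated data. All 10 genes were described. Of each pathway list the called genes were named, at most 4 in each direction, or else the 2 with the smallest p, and for each fallen gene the 3 with the highest Pearson r; ORAI3, PLCG1 and NFATC4 against acadesine were named after their values were seen. The members and lists were chosen with earlier results of these data known. Genes of the lists without a probe set of their own were not analysed here. Promoter windows came from RefSeq (GRCh38.p14), and only the first 250 bases, before the start, were searched.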

Additional observations from a re-analysis of the deposited data

How the results depend on the processing

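With the mean of all probe sets of a gene in place of the brightest one, the 3 genes called between combination and control became 1 (RCAN2), the 2 against acadesine 1 (RCAN2) and the 2 against rituximab 0. With the muscle level as a covariate the counts were 0, 1 and 1 (MEF2C in both), and the 6 pathway genes became 1, RAG1. Without the 4 muscle-raised tumors only 1 combination tumor is left, and the effect sizes of that fit are given above. Except for Rank Products, the share of all genes called is not given beside the counts in this section. The counts therefore cannot tell a change in these genes from a change over all genes. Why calls were lost was not tested. EBayes without the trend, and robust eBayes, each left 1 gene against acadesine and 1 against rituximab, MEF2C, and robust eBayes also lost RCAN2 against control (adjusted p = 0.0789 from limma). RCAN3 against control missed the threshold with p values adjusted over all probe sets (0.0531 from limma) and with only the groups compared (0.0590). Rank Products called 4 genes for the combination by their brightest probe sets, NFATC1 in addition, where it called 2.77% of all probe sets, dim ones included.

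Leaving out each tumor in turn gave 1 to 4 called genes against control, 0 to 3 against acadesine, 1 to 3 against rituximab and 0 to 1 for the interaction, 4 to 7 pathway genes, and 0 to 0 for each single agent. NFATC1 passed against acadesine without control tumor 2 (adjusted p = 0.0426) or acadesine tumor 3 (0.0283) and against rituximab without acadesine tumor 2 (0.00791), all from limma.

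The deviations of tumors with the same number from their group means correlated weakly (r of -0.121 to 0.190). Tumors with different numbers were not compared in this way, so these values cannot decide whether the numbers pair the tumors. With the replicate block, 4 genes were called against control, 3 against acadesine, 3 against rituximab and 1 for the interaction (MEF2C, adjusted p = 0.0364 from limma), NFATC1 being the added one in the first 3 (0.0363, 0.0128 and 0.0160), and 6 pathway genes.

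Small differences changed sign. Under the mean of all probe sets the values were -0.12 for MEF2C and -0.023 for NFATC2 with acadesine, -0.048 for MEF2C, -0.025 for MEF2D and 0.016 for RCAN1 with rituximab, -0.053 for NFATC2 with the combination, and 0.024 for RCAN3 between combination and acadesine. Without the 4 muscle-raised tumors they were 0.028 (MEF2A), 0.27 (NFATC1) and -0.036 (RCAN1) with acadesine, 0.14 for RCAN1 with the combination and 0.10 for RCAN3 between combination and acadesine; with the muscle covariate the last 2 were 0.034 and 0.031. RCAN1 with acadesine was -0.019 with array weights and -0.0021 with arrays centred on the median. Leaving out 1 tumor, the ranges that crossed 0 were, with acadesine, -0.15 to 0.028 (MEF2A), -0.17 to 0.16 (MEF2C), -0.14 to 0.039 (MEF2D), -0.39 to 0.27 (NFATC1), -0.039 to 0.23 (NFATC2) and -0.083 to 0.056 (RCAN1); with rituximab, -0.056 to 0.13 (MEF2D), -0.36 to 0.084 (NFATC1), -0.13 to 0.043 (NFATC3) and -0.12 to 0.021 (RCAN1); -0.042 to 0.23 (NFATC2) with the combination; and -0.20 to 0.014 (RCAN3) between combination and acadesine. The cause of these changes was not tested.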
